A study of Mus musculus with 2 samples.

Results

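Transcripts of 7 genes that use arginine or make itaconate were followed in tumor-associated neutrophils (TANs) of Smad3-WT and Smad3-KO mice and in the other cells that came through the same sort. The genes were taken by symbol, Arg1, Arg2, Nos2, Slc7a2, Ass1, Odc1 and Acod1, and each was 1 row among the 31053 genes of the deposited count matrix. In this study, CD11b+Ly6G+ cells were sorted from subcutaneous tumors of Lewis lung carcinoma (LLC), a mouse lung cancer cell line, and sequenced on the 10x Genomics 5′ platform, which counts unique molecular identifiers (UMIs), one for each captured transcript. Both libraries came from C57BL/6 mice of 8 to 12 weeks that were wild-type (Smad3+/+) or Smad3-deficient (Smad3-/-), and each library was made from several tumors mixed before capture. There was thus 1 library per genotype and no replicate, so every difference below compares these libraries, carries an interval for counting error only, and has no test of genotype.

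Arginine is drawn on by several enzymes in myeloid cells. Arg1, the cytosolic arginase, and Arg2, the mitochondrial one, split it into ornithine and urea, whereas Nos2, the inducible nitric oxide synthase, turns it into nitric oxide and citrulline. Slc7a2 is a transporter that brings arginine into the cell, Ass1 is the argininosuccinate synthase that recycles citrulline towards arginine, and Odc1, ornithine decarboxylase, takes ornithine into polyamines. Acod1 is the mitochondrial enzyme that makes itaconate from an intermediate of the citric acid cycle, and it is known for strong induction in activated macrophages and neutrophils. In tumors, Arg1 and Nos2 are often read as marks of opposite states of macrophages and neutrophils.

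All 7 are protein-coding genes of the mm10 build, the build named for these reads. Arg1 lies on the minus strand at chr10:24915221-24927484. The other 6 lie on plus strands, namely Arg2 at chr12:79130777-79156301, Nos2 at chr11:78920787-78960254, Slc7a2 at chr8:40862396-40922308, Ass1 at chr2:31470207-31520672, Odc1 at chr12:17544794-17551505 and Acod1 at chr14:103046977-103056573.

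Promoter windows of RefSeq (GRCm38.p6, the same assembly), reaching from 250 bases before the start site to 50 bases after it, were at hand for 3 of the 7 genes, Ass1, Odc1 and Acod1. The windows of Acod1 (chr14:103046762-103047061, plus strand) and Odc1 (chr12:17544623-17544922, plus strand) are shown because these 2 genes differed between the libraries in opposite directions in the neutrophil-like cells described below. Capitals mark every match, on either strand, to CAGAC (a short site that Smad3 binds), TATAAA (a core promoter element), GGNNNTTCC (a pattern bound by NF-kappaB), TTCNNNGAA (a pattern bound by STAT factors) and CACGTG (an E-box).
Acod1: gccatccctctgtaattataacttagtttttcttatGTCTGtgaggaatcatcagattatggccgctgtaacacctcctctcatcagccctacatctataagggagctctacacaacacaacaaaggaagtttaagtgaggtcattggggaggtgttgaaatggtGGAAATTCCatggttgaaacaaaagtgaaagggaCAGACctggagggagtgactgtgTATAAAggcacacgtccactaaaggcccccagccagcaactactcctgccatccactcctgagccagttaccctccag
Odc1: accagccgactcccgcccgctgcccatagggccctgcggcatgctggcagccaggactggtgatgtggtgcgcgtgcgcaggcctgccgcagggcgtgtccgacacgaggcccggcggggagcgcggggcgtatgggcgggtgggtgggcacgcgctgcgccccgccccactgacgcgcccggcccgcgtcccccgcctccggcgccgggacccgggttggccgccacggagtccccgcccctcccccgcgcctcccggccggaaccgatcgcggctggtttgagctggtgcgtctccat
In the Acod1 window, CAGAC was found in both directions, once read as GTCTG at base 37 of the window and once as written at base 200. The TATAAA began 28 bases before the start site, and GGAAATTCC, where the pattern GGNNNTTCC matches on both strands, began 85 bases before it. Over all 32851 RefSeq mouse promoter windows of this length, 49.6% held CAGAC, 13.6% TATAAA, 18.5% GGNNNTTCC, 8.3% TTCNNNGAA and 7.15% CACGTG. The Odc1 window held no match to any of the 5 patterns, which says only that these letters are not in these 300 bases. The Ass1 window, not printed here, held CAGAC, read as GTCTG, at base 294 and CACGTG at base 215.

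After the quality filter, 3520 of 4116 Smad3-WT barcodes and 2433 of 2514 Smad3-KO barcodes remained, with 12176201 and 4146792 UMIs and medians of 1318 and 1199 UMIs per cell. The sort label of neutrophils did not describe all of these cells. Clusters built without the 7 genes and their pathway genes, and named from marker genes, gave 1819 neutrophil-like cells in the Smad3-WT library (51.7%, exact binomial interval 50.01 to 53.3%) and 1081 in the Smad3-KO library (44.4%, 42.4 to 46.4%). Macrophage or monocyte-like cells numbered 1255 and 129, LLC carcinoma-like cells 324 and 32, T or NK-like cells 45 and 414, B cell-like cells 3 and 485, fibroblast-like cells 47 and 67 and dendritic-like cells 23 and 39. A further 4 and 186 cells carried B cell genes together with neutrophil genes at 0.191 and macrophage genes at 0.1505 of the level in those classes, and were kept out of every class. Different clusters held most of a class in each library. Of the neutrophil-like cells, 1011 Smad3-WT cells lay in a cluster led by AC110211.1, Gm5483 and Cxcl3, and 863 Smad3-KO cells in one led by Il1a, Tnfaip3 and Mreg. A cluster led by Retnlg, G0s2 and Lrg1 held 533 and 132 cells. The macrophage or monocyte-like cells came mostly from a Vcan-led cluster in the Smad3-WT library (635 cells) and from an Mgl2-led cluster in the Smad3-KO library (80 cells). H2-Eb1 and H2-Ab1 were the next leading genes of the Mgl2-led cluster, which took its class from C1qb, Csf1r and Ccr2. The dendritic markers Cd209a and Batf3 were raised in it as well, so its class is less certain. Ratios over this class thus compare different mixtures of clusters. The libraries shared 73 barcode sequences. Smad3 itself stood at 14.6 and 77.4 CPM (UMIs of a gene per 1000000 UMIs of the same cells) in the Smad3-WT and Smad3-KO cells. UMIs of a 5′ kit do not show whether the disrupted exons are missing, so this value checks nothing about the genotype.

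In neutrophil-like cells, Acod1 and Nos2 were higher and Odc1 lower in the Smad3-KO library, whereas Arg1 was scarce in both. A gene was counted when its CPM differed by more than 2-fold with a 95% interval that excludes 1. By this rule 3 of the 7 genes were higher in Smad3-KO (Nos2, Acod1 and Ass1, the last on 13 UMIs in all) and 1 was lower (Odc1). Over the 6207 genes with at least 20 UMIs in these cells, 6.99% were higher and 17.5% lower. Of the 5 enzyme genes that reached 20 UMIs, 2 were higher and 1 lower. The call of Ass1 was lost under 4 of 12 other settings. The median gene of these cells stood at a ratio of 0.767 of Smad3-KO to Smad3-WT (a shift of -0.38 on the log2 scale). Scaling to that median moved the calls over all genes from 434 higher and 1087 lower to 721 higher and 497 lower, and under it no enzyme gene crossed a ratio of 1, while Slc7a2 was also counted as higher (10.1, on 7 UMIs in all).

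The macrophage or monocyte-like cells gave another order. Nos2 was the 1 gene counted as higher in the Smad3-KO library, and 3 were lower, Arg1, Arg2 and Odc1. Over the 10171 genes with at least 20 UMIs there, 8.22% were higher and 5.17% lower. The call of Arg2 rested on 8 Smad3-KO UMIs and was lost under 7 of the 13 other settings, one of them a second random seed of the clustering.

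**Figure D1:**
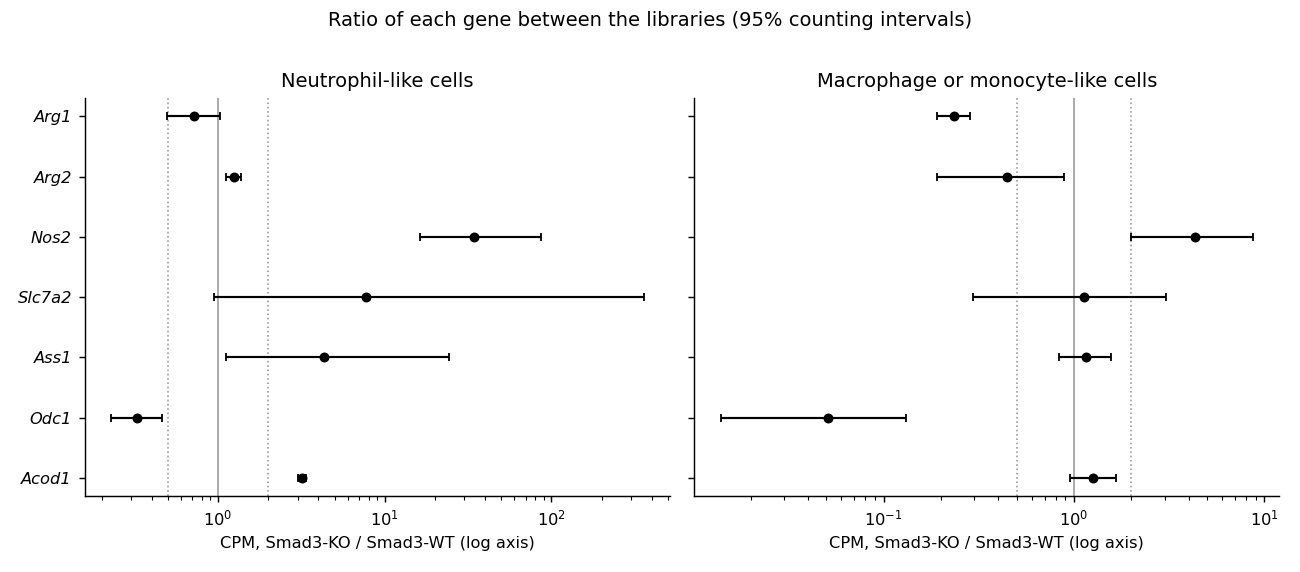
Ratio of CPM in the Smad3-KO library to that in the Smad3-WT library for each gene (log axis), in neutrophil-like cells on the left and macrophage or monocyte-like cells on the right, with 95% exact intervals that cover counting error only. The solid line marks a ratio of 1 and the dotted lines a difference of 2-fold. Nos2 lies to the right of the line in both classes (34.2 and 4.35), Odc1 to the left in both (0.327 and 0.0512), and Acod1 past the right dotted line in the neutrophil-like cells (3.19).

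Nos2, the nitric oxide synthase gene, showed the largest ratio among the 7 in neutrophil-like cells. It had 7 UMIs in 5 of 1819 Smad3-WT cells (4.17 CPM, 1.68 to 8.58) and 185 UMIs in 123 of 1081 Smad3-KO cells (142 CPM, 123 to 164). The intervals did not overlap, and the ratio was 34.2 (16.3 to 86.2). After each cell was thinned to 500 UMIs, since the median depths of the Smad3-WT and Smad3-KO neutrophil-like cells were 742 and 1016 UMIs, 0.110% and 6.20% of the cells held a Nos2 UMI, against 0.275% and 11.4% before thinning. No Nos2 UMI was found in the 485 B cell-like cells of the Smad3-KO library at a median depth of 1202 UMIs. Nos2 was thus seen in a minority of the Smad3-KO neutrophil-like cells, and the tenth of cells richest in it held 92.4% of its UMIs. Nearly all of it, 179 UMIs and 173 CPM, lay in the Il1a-led cluster, where the 28 Smad3-WT cells held none. Set against a floor of 3 UMIs it was 1.47-fold higher there, and the exact interval of its ratio began at 1.18.

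In macrophage or monocyte-like cells Nos2 was rare in both libraries, with 37 UMIs in 31 Smad3-WT cells (6.15 CPM, 4.33 to 8.47) and 11 UMIs in 7 Smad3-KO cells (26.7 CPM, 13.3 to 47.8), a ratio of 4.35 (2.0 to 8.70). The Smad3-KO value stood at 0.188 of the level in neutrophil-like cells of that library, above the 0.0354 to 0.133 of the 8 neutrophil marker genes used to read background RNA (S100a8, S100a9, Csf3r, Cxcr2, Retnlg, Mmp9, G0s2 and Il1r2). This quotient rests on the 11 Smad3-KO UMIs and has no interval, and the part of background RNA in it was not tested. The highest Nos2 level of the Smad3-KO library was in fibroblast-like cells, at 252 CPM (204 to 309), with 93 UMIs in 18 of 67 cells and up to 17 in one cell. In Smad3-WT fibroblast-like cells it was 24.6 CPM (10.6 to 48.5) on 8 UMIs, which gave a ratio of 10.3 (4.99 to 24.4). LLC carcinoma-like cells of the Smad3-WT library had 6.95 CPM, an interval that overlaps those of neutrophil-like and macrophage or monocyte-like cells there.

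Arg1, the cytosolic arginase, was foremost a macrophage transcript in the Smad3-WT library. Of the 6470 Arg1 UMIs in filtered Smad3-WT cells, 95.5% lay in macrophage or monocyte-like cells, with 1.34% in the neutrophil-like ones. The level was 1026 CPM (1001 to 1052) in such cells of the Smad3-WT library and 240.5 CPM (196 to 293) in those of the Smad3-KO library, which gave a ratio of 0.234 (0.190 to 0.286). A UMI was seen in 54.8% and 21.7% of these cells, at median depths of 3627 and 2804 UMIs, and in 29.0% (26.5 to 31.6%) and 11.6% (6.66 to 18.4%) of them at 500 UMIs. In Smad3-KO B cell-like cells the share before thinning was 0.412%. Arg1 was lower in the Smad3-KO library in each of the 3 clusters of this class, with ratios of 0.346 (0.228 to 0.505) in the Vcan-led, 0.479 (0.317 to 0.693) in the Cbr2-led and 0.369 (0.265 to 0.502) in the Mgl2-led cluster. These ratios rest on 27, 28 and 44 Smad3-KO UMIs from clusters of 23, 26 and 80 Smad3-KO cells. A single Smad3-KO cell of the class held 14 Arg1 UMIs, and the intervals do not take such clumping into account. The Mgl2-led cluster had the lowest level in both libraries, 397 and 147 CPM, against 1340 and 464 CPM in the Vcan-led one. Over the class as a whole the ratio was lower than in any of its clusters, and the share of cells in the Mgl2-led cluster was larger in the Smad3-KO library (80 of 129 cells) than in the Smad3-WT library (270 of 1255 cells).

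In neutrophil-like cells Arg1 had 87 UMIs in 44 Smad3-WT cells (51.8 CPM, 41.5 to 63.9) and 48 UMIs in 10 Smad3-KO cells (36.9 CPM, 27.2 to 49.0), and these intervals overlapped. A single cell held 13 of the Smad3-WT UMIs and a single cell 21 of the Smad3-KO UMIs, which the intervals do not take into account. The ratio was 0.714 (0.491 to 1.03), and under 5 of 12 other settings Arg1 was counted as lower, with ratios down to 0.109. The Smad3-WT level came to 0.0504 of the macrophage level, within the range of 0.0184 to 0.400 covered by the 12 macrophage marker genes read in the same way, of which 4 stood at or above it. In the Smad3-KO library the quotient was 0.154, with 2 of 12 markers at or above it. Neutrophil-like cells without a UMI of C1qa, C1qb, C1qc, Pf4 or Ms4a7 had 31.9 CPM of Arg1 when Smad3-WT and 12.7 CPM when Smad3-KO, and the ratio was then 0.399 (0.212 to 0.716). Those with such a UMI, 156 and 20 cells, had 221 and 737 CPM. The summed level of the 12 macrophage genes in neutrophil-like cells was 383 CPM (354 to 413) in the Smad3-WT and 222 CPM (197 to 248.8) in the Smad3-KO library, with none of the 12 at 0, and its part in the Arg1 values was not tested. Fibroblast-like cells of the Smad3-WT library also held Arg1, at 422 CPM (354 to 498), against 21.7 CPM (9.37 to 42.8) in the Smad3-KO library. The macrophage genes summed to 3580 and 1145 CPM in these same fibroblast-like cells, and their part in this difference was not tested.

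**Figure D2:**
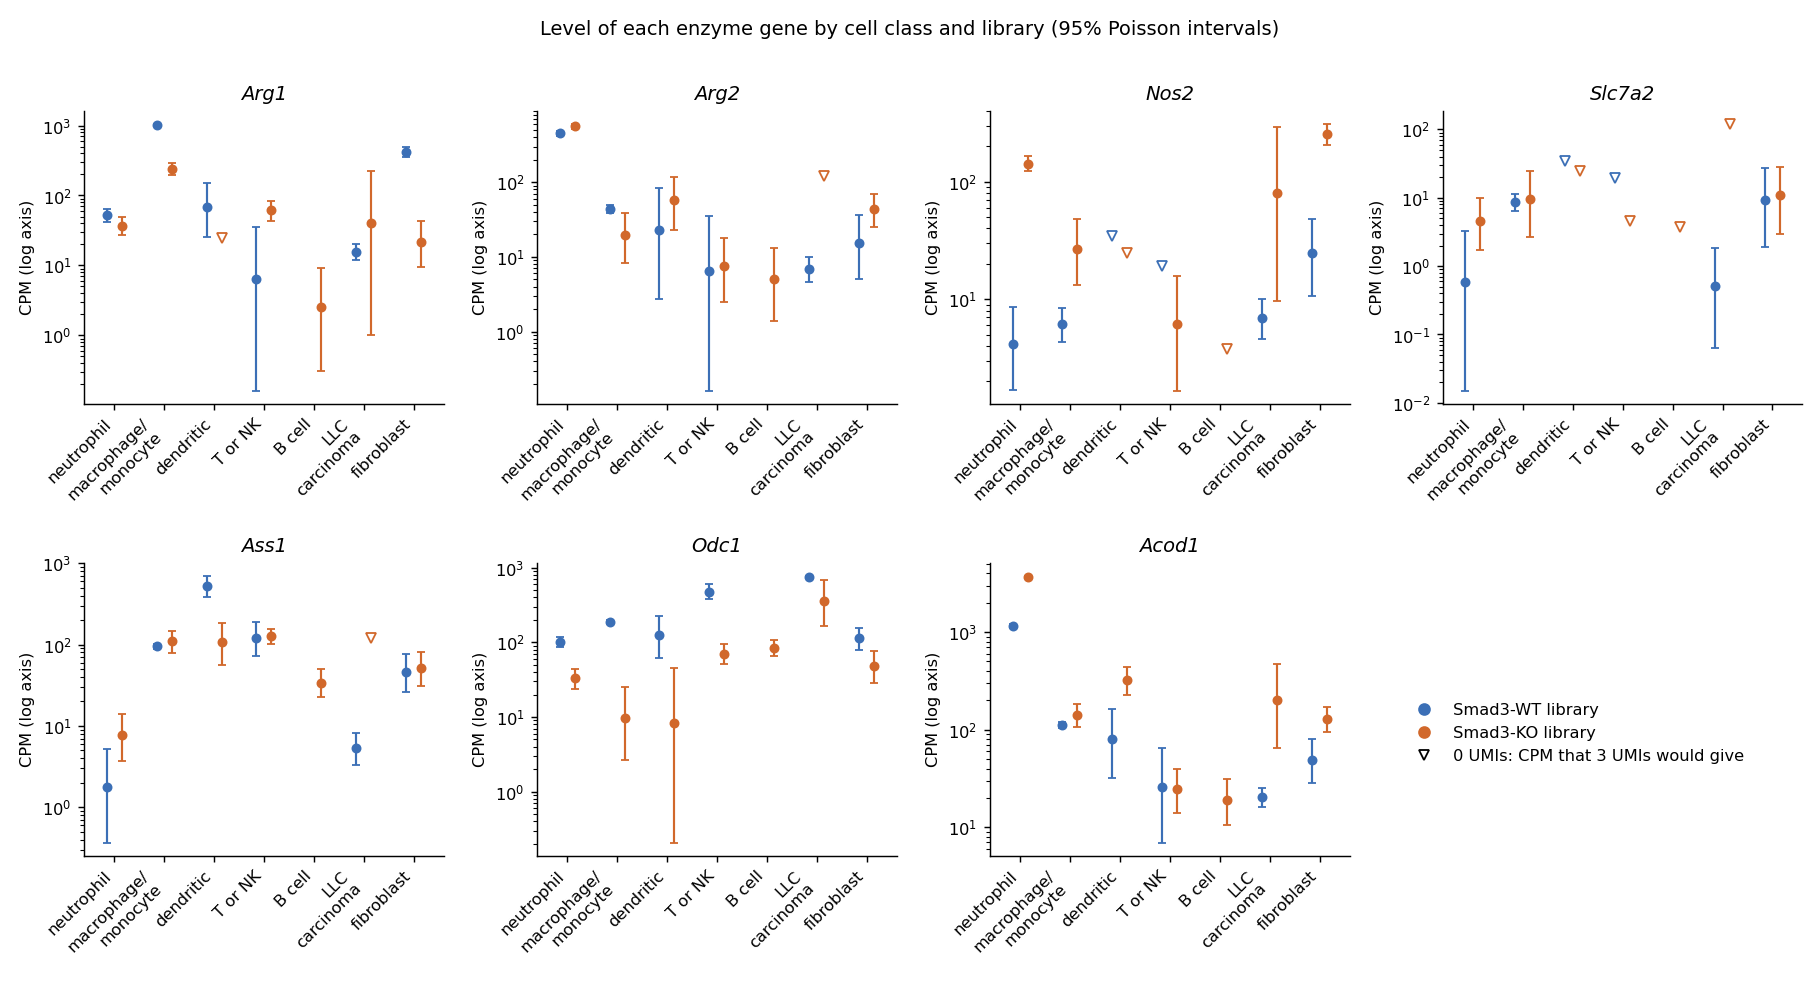
Level of each gene in CPM (log axes that differ between panels) by cell class, for the Smad3-WT library in blue and the Smad3-KO library in orange, with exact Poisson intervals at 95%. Open triangles mark classes with 0 UMIs, at the CPM that 3 UMIs would give, and classes with fewer than 20 cells in a library are left out. Arg1 peaks in Smad3-WT macrophage or monocyte-like cells (1026 CPM), Arg2 and Acod1 in neutrophil-like cells of both libraries, Odc1 in LLC carcinoma-like cells and Ass1 in dendritic-like cells of the Smad3-WT library (525 CPM).

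Arg2, the mitochondrial arginase, had a higher transcript level than Arg1 in the neutrophil-like cells of both libraries. Its level there was 452 CPM (420 to 485) for Smad3-WT and 560 CPM (520 to 602) for Smad3-KO, with a ratio of 1.24 (1.12 to 1.37), under the 2-fold rule. A UMI was found in 30.3% and 43.5% of the cells, and in 19.2% (17.4 to 21.1%) and 24.1% (21.5 to 26.7%) at 500 UMIs, while 0.825% of Smad3-KO B cell-like cells held one. Within the Retnlg-led cluster, which both libraries filled, the ratio was 0.975 (0.719 to 1.30). In the Il1a-led cluster Arg2 was at 236 CPM in 28 Smad3-WT cells, on 6 UMIs, and at 616 CPM in 863 Smad3-KO cells. The ratio there was 2.61 (1.19 to 7.14), past 2-fold. In the AC110211.1-led cluster it was 0.904 (0.292 to 2.125), on 5 Smad3-KO UMIs. In macrophage or monocyte-like cells Arg2 was at 43.7 CPM (38.6 to 49.3) in Smad3-WT and 19.4 CPM (8.39 to 38.3) in Smad3-KO. The Smad3-KO value was 0.0347 of that in neutrophil-like cells, and all 8 neutrophil marker genes stood at or above this quotient. In the Smad3-WT library the quotient was 0.0968 and none of the 8 reached it. Without macrophage or monocyte-like cells that held a UMI of Cxcr2, Mmp9, Csf3r or Retnlg, the levels were 19.4 and 18.02 CPM and the ratio was 0.929 (0.292 to 2.28).

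Acod1, the itaconate-forming enzyme, was found in most Smad3-KO neutrophil-like cells. Its level was 1148 CPM (1097 to 1200) for Smad3-WT and 3660 CPM (3557 to 3766) for Smad3-KO, with a ratio of 3.19 (3.02 to 3.36). It was detected in 44.0% and 83.2% of these cells, and in 33.5% (31.3 to 35.7%) and 70.3% (67.5 to 73.0%) at 500 UMIs. B cell-like and T or NK-like cells of the Smad3-KO library, at median depths of 1202 and 1308 UMIs, held a UMI in 3.09% and 3.14%. Among cells thinned to 500 UMIs, 1.37% of the neutrophil-like ones from Smad3-WT tumors and 10.3% from Smad3-KO tumors still held 5 or more Acod1 UMIs. The difference varied between clusters. In the Retnlg-led cluster Acod1 was at 1199 and 1602 CPM, a ratio of 1.34 (1.11 to 1.60). In the Il1a-led cluster it was at 2243 CPM in 28 Smad3-WT cells and at 4310 CPM in 863 Smad3-KO cells, a ratio of 1.92 (1.48 to 2.54). In the AC110211.1-led cluster it was at 1232 and 1819 CPM, the latter from 18 cells, and the interval of the ratio, 0.932 to 2.22, included 1. In an Mmp9-led cluster of 247 and 4 cells it was at 372 CPM and, on 13 UMIs, at 6095 CPM, a ratio of 16.4 (8.29 to 29.9). The 64 Smad3-KO cells of a cluster led by Camp, Ngp and Ltf, genes of neutrophil secondary granules, had 669 CPM, and without them the ratio over the class was 3.53 (3.35 to 3.73). In the 3 clusters with 18 or more cells of each library the ratio was therefore smaller than over the class, in which the Il1a-led cluster held 863 of 1081 Smad3-KO and 28 of 1819 Smad3-WT cells.

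**Figure D3:**
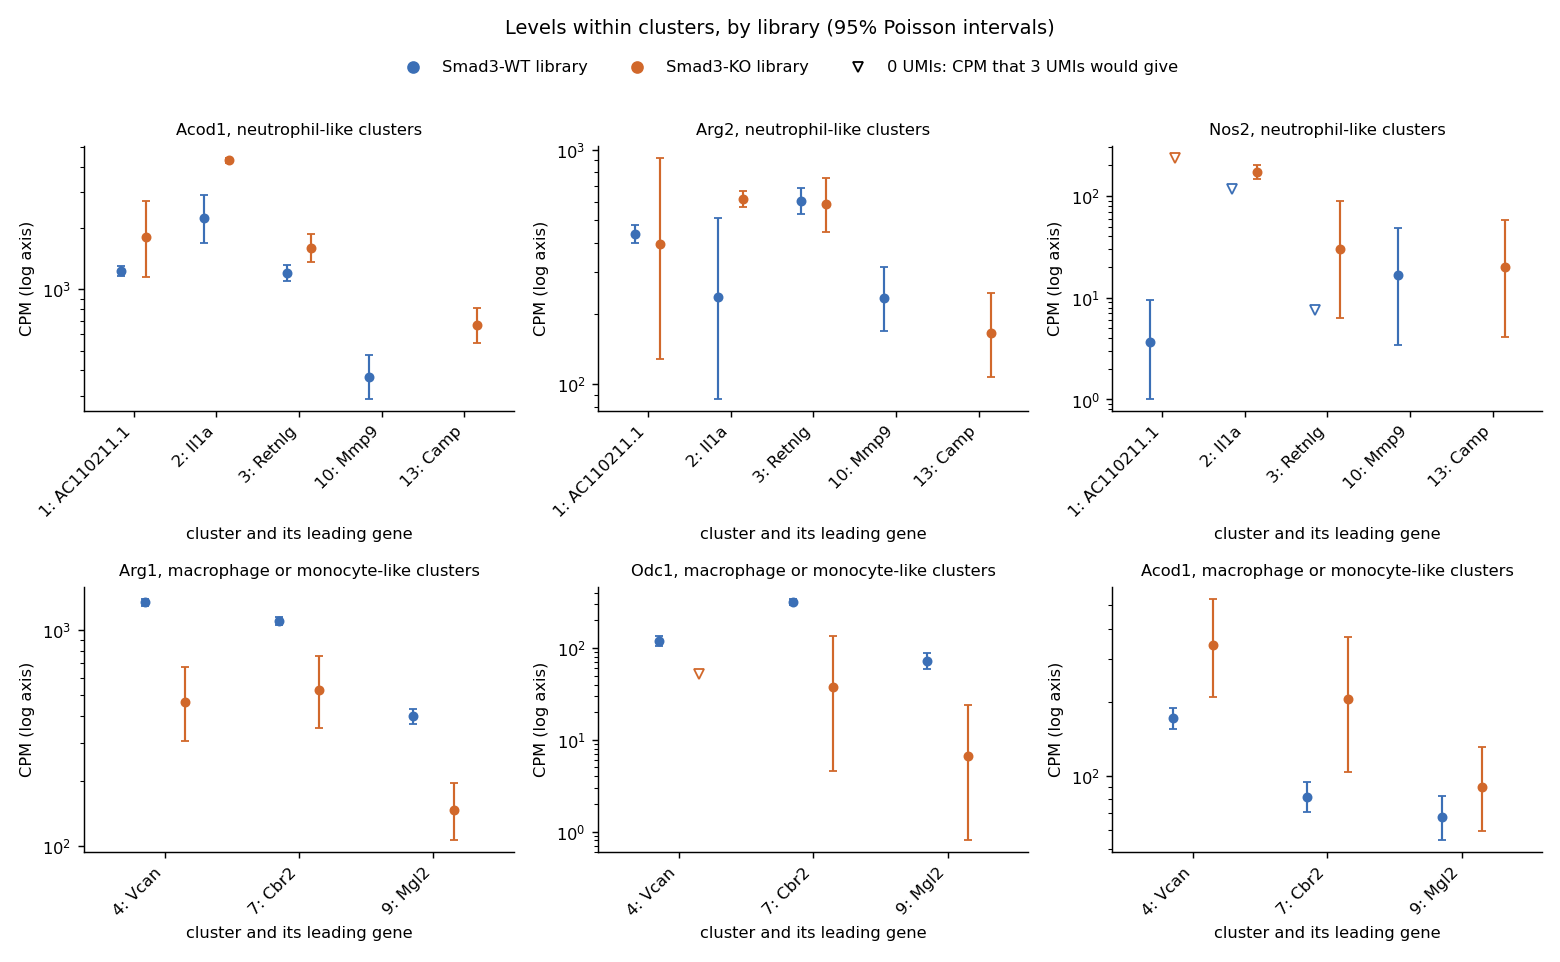
Levels in CPM (log axes that differ between panels) within the 5 neutrophil-like clusters (top) and the 3 macrophage or monocyte-like clusters (bottom), by library, with exact Poisson intervals at 95%. Clusters are named by their leading gene, open triangles mark 0 UMIs at the CPM that 3 UMIs would give, and a library with fewer than 18 cells in a cluster is not drawn. Acod1 is highest in Smad3-KO cells of the Il1a-led cluster (4310 CPM), and Arg1 is lower in Smad3-KO than in Smad3-WT cells of all 3 macrophage or monocyte-like clusters.

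In macrophage or monocyte-like cells Acod1 was at 111 CPM (103 to 120) in the Smad3-WT and 141 CPM (107 to 182) in the Smad3-KO library, and the interval of the ratio, 0.951 to 1.66, included 1. The ratio was 2.0 (1.21 to 3.13) in the Vcan-led, 2.53 (1.24 to 4.63) in the Cbr2-led and 1.34 (0.836 to 2.07) in the Mgl2-led cluster. It ranged from 0.780 to 2.19 over the other settings. The Smad3-KO level was 0.0385 of that in neutrophil-like cells, with 7 of 8 neutrophil markers at or above this quotient. In the Smad3-WT library the quotient was 0.0970 and none of the 8 reached it. In Smad3-WT cells without a UMI of Cxcr2, Mmp9, Csf3r or Retnlg, the level was 58.8 CPM, against 179 CPM in cells with one. The neutrophil genes summed to 4379 and 4312 CPM in these cells of the Smad3-WT and Smad3-KO libraries, none at 0, and their part in the Acod1 values was not tested. Dendritic-like cells had 79.9 CPM (32.1 to 165) in the Smad3-WT library and 320.1 CPM (228 to 438) in the Smad3-KO library, the latter with 39 UMIs in 7 of 39 cells. The same neutrophil genes summed to 7359 and 6690 CPM in the dendritic-like cells, beside 81521 and 92552 CPM in the neutrophil-like ones. Their part in the dendritic Acod1 values and in the difference between them was not tested.

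Odc1, which leads from ornithine to polyamines, was foremost a transcript of the carcinoma cells. In Smad3-WT LLC carcinoma-like cells it was at 751 CPM (724 to 779) and was found in 87.7% of 324 cells. These cells held 67.0% of its UMIs in the filtered cells of that library. T or NK-like cells followed at 480 CPM (377 to 601), then macrophage or monocyte-like cells at 190 CPM (179 to 201). Dendritic-like, fibroblast-like and neutrophil-like cells, at 125.5, 114 and 101 CPM, had intervals that overlapped each other, and that of the dendritic-like cells, 62.7 to 225, also covered the macrophage level. Odc1 was lower in the Smad3-KO library in all 6 of these classes. The ratios were 0.327 (0.229 to 0.460) in neutrophil-like, 0.0512 (0.0139 to 0.131) in macrophage or monocyte-like, 0.147 (0.0994 to 0.215) in T or NK-like, 0.429 (0.230 to 0.773) in fibroblast-like and 0.479 (0.219 to 0.911) in LLC carcinoma-like cells. A single Smad3-WT neutrophil-like cell held 19 of the 170 Odc1 UMIs there, which the interval does not take into account. With a mean over cells the neutrophil-like ratio was 0.463, just outside that interval. Within the Retnlg-led neutrophil-like cluster Odc1 had 18 and 0 UMIs. Set against a floor of 3 UMIs it was 1.49-fold lower, and the exact interval of its ratio reached up to 0.914. Its ratio was 0.632 (0.0159 to 3.58) in the AC110211.1-led cluster, on 135 and 1 UMIs, and 1.01 (0.171 to 40.7) in the Il1a-led cluster, on 1 and 41 UMIs, and both intervals included 1. The dendritic-like cells held 11 and 1 UMIs, a ratio of 0.0654 (0.00152 to 0.450). The LLC carcinoma-like cells of the Smad3-KO library had a median of 617 UMIs against 13206 in the Smad3-WT library. Those of Smad3-KO tumors held 9 Odc1 UMIs in all. The LLC line was injected into mice of both genotypes, so this ratio does not compare carcinoma cells of different Smad3 genotype. LLC carcinoma-like cells made up 31.9% of filtered Smad3-WT UMIs but 0.603% of filtered Smad3-KO UMIs. The part of their background RNA in the Odc1 values of the other classes was not tested. The macrophage or monocyte-like value rested on 1143 and 4 UMIs, and at 500 UMIs a cell its ratio was 0.336, with an interval of 0.0679 to 1.01 that included 1.

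Ass1, which feeds citrulline back towards arginine, was nearly absent from neutrophil-like cells, with 3 UMIs for Smad3-WT (1.79 CPM, 0.368 to 5.22) and 10 for Smad3-KO (7.70 CPM, 3.69 to 14.2), a ratio of 4.31 (1.11 to 24.4). The Smad3-WT level came to 0.0188 of the macrophage level, and 11 of 12 macrophage markers stood at or above this quotient. In the Smad3-KO library it came to 0.0704, with 3 of 12 markers at or above it. Its highest level was in Smad3-WT dendritic-like cells, at 525 CPM (384 to 700) on 46 UMIs, against 107 CPM (56.8 to 182) in the Smad3-KO library. T or NK-like cells had 122 and 127 CPM and macrophage or monocyte-like cells 95.02 and 109 CPM, and for both classes the interval of the ratio included 1 (0.629 to 1.82 and 0.830 to 1.56). In the Mgl2-led cluster, however, it was at 214 CPM in Smad3-WT and 113 CPM in Smad3-KO cells, a ratio of 0.529 (0.359 to 0.755). Slc7a2, the arginine transporter, was the scarcest of the 7, with 58 and 17 UMIs in filtered cells of the Smad3-WT and Smad3-KO libraries. Of the Smad3-WT UMIs, 52 were in macrophage or monocyte-like cells (8.64 CPM, 6.45 to 11.3), where the Smad3-KO library had 4 (9.72 CPM, 2.65 to 24.9). Neutrophil-like cells held 1 and 6 UMIs, and the interval of their ratio, 0.942 to 357, was too wide to place it.

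The genes around these steps, 58 found in the matrix across arginine transport, the urea cycle and proline, cofactors and control of nitric oxide synthase, polyamines, creatine, the citric acid cycle near itaconate, and regulators, were counted by the same rule. Of 27 with at least 20 UMIs in neutrophil-like cells, 1 was higher and 3 were lower in Smad3-KO, beside 6.99% and 17.5% of all genes, with a median ratio of 0.962 beside 0.767 over all genes. The higher one was Irf1, a transcription factor of the interferon response, at 178 and 448 CPM (ratio 2.52, 2.19 to 2.90). The lower ones were Srm, the spermidine synthase (0.223, 0.0674 to 0.583), Oat, which converts ornithine towards proline (0.467, 0.227 to 0.902), and Suclg1, a subunit of the succinyl-CoA ligase (0.448, 0.185 to 0.986). These ratios were not scaled to the median of 0.767 over all genes, and the upper limits of Oat and Suclg1 lie above that median. In macrophage or monocyte-like cells 1 of 47 was higher and 3 were lower, beside 8.22% and 5.17% of all genes, with a median of 0.844 beside 1.03 over all genes. Gatm, the first enzyme of creatine synthesis from arginine, was at 48.2 and 158 CPM (ratio 3.28, 2.46 to 4.30). Spr, the sepiapterin reductase that makes the tetrahydrobiopterin cofactor of nitric oxide synthase, was at 41.0 and 4.86 CPM (0.118, 0.0143 to 0.432). Gchfr, which inhibits the first enzyme of that cofactor's synthesis, had 306 UMIs against none in the Smad3-KO library. Set against a floor of 3 UMIs it was 6.98-fold lower, and the exact interval of its ratio reached up to 0.177. Srm was lower here also (0.454, 0.258 to 0.745). Srm was the 1 gene of the polyamine list past 2-fold in either class, of 8 counted in neutrophil-like cells (median ratio 1.02) and 9 in macrophage or monocyte-like cells (median 1.07). Among the genes with the highest CPM of their list, Cebpb was at 5787 and 4975 CPM, Sat1, which breaks down polyamines, at 1318 and 1346 CPM, and Smox, the spermine oxidase, at 1157 and 1541 CPM in neutrophil-like cells of the Smad3-WT and Smad3-KO libraries.

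Co-detection was read in cells thinned to 500 UMIs, where 22.4% (19.9 to 24.99%) of Smad3-KO and 8.19% (6.97 to 9.55%) of Smad3-WT neutrophil-like cells held UMIs of exactly 2 of the 7 genes. Arg2 and Acod1 were found together in 196 of 1081 Smad3-KO and 116 of 1819 Smad3-WT neutrophil-like cells. In the Smad3-WT library Acod1 was detected in 33.2% (28.3 to 38.4%) of cells with Arg2 and 33.5% (31.1 to 36.0%) of cells without it. In the Smad3-KO library the shares were 75.4% (69.7 to 80.5%) and 68.7% (65.4 to 71.9%), and the intervals overlapped. Acod1 was likewise found in 80.6% (69.1 to 89.2%) of the 67 Smad3-KO cells with Nos2 and 69.6% (66.7 to 72.4%) of those without.

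Few cells held both Arg1 and Nos2, in classes where Nos2 or Arg1 was itself found in few cells. With all UMIs, 25 of 1255 macrophage or monocyte-like cells of the Smad3-WT library held both (1.99%, 1.29 to 2.93%), and these were 25 of the 31 cells with Nos2. Nos2 was found in 3.63% (2.36 to 5.32%) of the cells with Arg1 and in 1.06% (0.389 to 2.29%) of those without. At 500 UMIs a single cell held both (0.0797%), and the shares of Nos2 were 0.275% and 0.337%. In Smad3-KO neutrophil-like cells 5 cells held both, of 10 with Arg1 and 123 with Nos2. Of those 10 cells with Arg1, 5 also held a UMI of the macrophage genes C1qa, C1qb, C1qc, Pf4 or Ms4a7, whose part in these double detections was not tested.

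The averages of 13 clusters that the authors deposited are a second reading of the same libraries. Acod1 was highest in deposited cluster 3 (6.25), followed by clusters 4 (2.95) and 1 (2.19), in units of UMIs per cell at the median depth. Arg2 was highest in clusters 3 (0.860), 6 (0.714) and 1 (0.675), and Nos2 in cluster 3 (0.235), then 12 (0.0810) and 4 (0.0700). Clusters 1, 3, 4 and 6 were all nearest to the neutrophil-like cells in profile. So was cluster 10, with a correlation of 0.660, which had 0.599 of Acod1, 0.2525 of Arg2 and no Nos2. Cluster 3 was also highest for Il1a among the clusters, at 1.33. Cluster 6, highest for Csf3r at 2.50, had 1.12 of Acod1 and no Nos2. Arg1 was highest in clusters 5 (1.83), 7 (1.25) and 12 (0.935), all nearest to macrophage or monocyte-like cells, although cluster 12 with a correlation of only 0.373. Odc1 was highest in clusters 11 (1.32) and 2 (0.849), nearest to LLC carcinoma-like cells, although cluster 2 was also the highest for the fibroblast gene Col1a1 (1.63), and Ass1 in cluster 13 (0.255), nearest to dendritic-like cells. Slc7a2 reached 0.0270 in cluster 12.

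**Figure D4:**
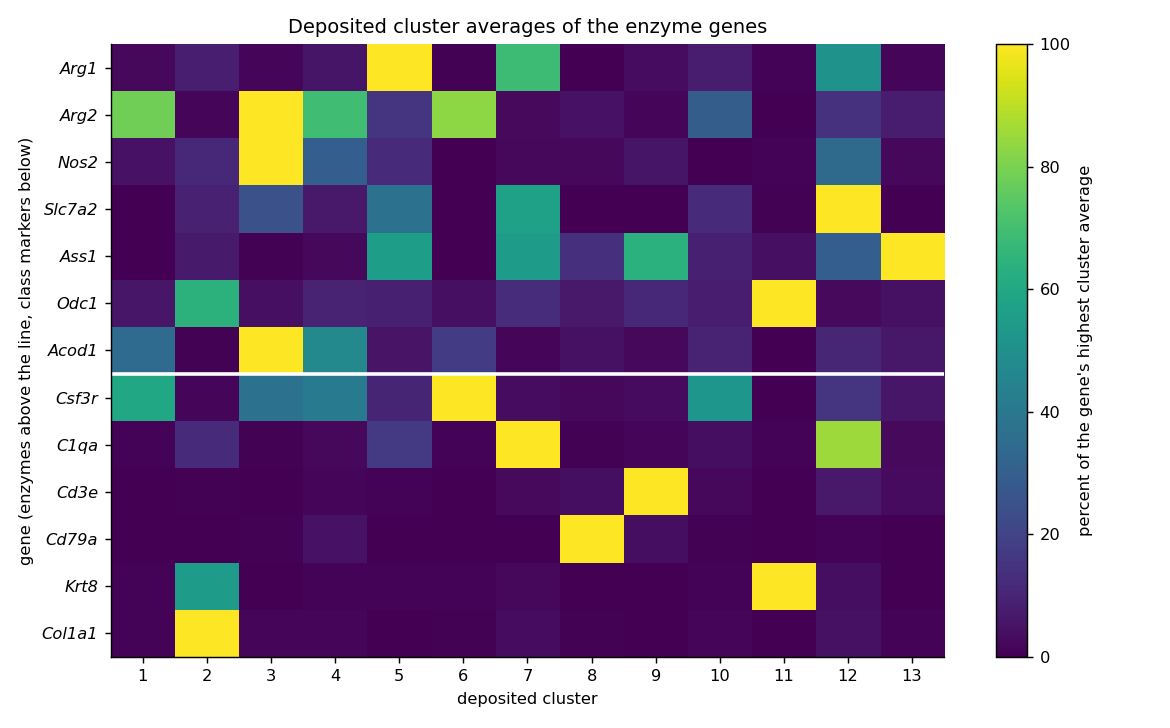
Averages of the 13 deposited clusters, each gene shown as a percent of its own highest cluster, for the 7 enzyme genes above the white line and 6 class marker genes below it. Acod1, Arg2 and Nos2 are all highest in deposited cluster 3, Arg1 in cluster 5, Ass1 in cluster 13 and Odc1 in cluster 11, the cluster that is also highest for Krt8.

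Across these 13 averages, on the scale log2(average + 0.01), Arg2 and Acod1 ran together (Pearson r 0.945), Arg1 ran with Slc7a2 (0.820), and Odc1 ran opposite to Acod1 (-0.78). The Slc7a2 averages had a median of 0.00189, under the 0.01 added, which limits what its r can show. Arg1 and Nos2 had an r of 0.205 and Arg2 and Nos2 of 0.371. The Nos2 averages had a median of 0.0115, close to the 0.01 added, and were at 0 in 2 clusters, which limits every r of Nos2 as well. The clusters share libraries, depth and cell classes, so these values describe the pattern and carry no test. Among 9063 genes with at least 200 UMIs, those most like each member were taken by the same measure. For Arg1 they included F13a1 (0.987) and C3ar1 (0.985), and for Arg2 they were Csrnp1 (0.996), Gm5483 (0.991) and Il1f9 (0.988). For Acod1 they were Iqsec1 (0.995), Nfkbiz (0.991) and Ccrl2 (0.989). Nos2 had its nearest genes at lower values, with Nceh1 (0.896), Smcr8 (0.892) and Gde1 (0.887). Odc1 was closest to Pimreg (0.967), Thap4 (0.959) and Pla2g12a (0.9495), Ass1 to Tango2 (0.972), Lrrc8c (0.967) and Fam241a (0.961), and Slc7a2, which was at 0 in 5 of the 13 clusters, to Tpp1 (0.976), Slc7a8 (0.929) and Aoah (0.928).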

How the data were processed

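The authors made both single-cell libraries, Smad3-WT and Smad3-KO, with the 10x Genomics 5′ kit and mapped to mm10 with Cell Ranger (version 3.0.2 in the file header, tool and build from the submitters' processing notes). In the deposited matrix, values are raw counts of UMIs for each gene and cell. Barcode suffixes of the matrix were assigned to genotypes by the deposited averages of each library, which the summed counts match within 4.91e-09 and 3.58e-08. The deposited averages of libraries and of 13 clusters are a signal, UMIs per cell at the median depth over both libraries, made by the authors. Columns of the authors' own fold changes and p-values were not used.

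A cell stayed in with 200 genes or more, mitochondrial UMIs below 10% and a total above 500 and below 20000 UMIs, the filter of the study's methods, which removed 382 Smad3-WT and 0 Smad3-KO cells by its upper limit. They were clustered with scanpy 1.11.5 by the Louvain method (igraph 0.11.9, resolution 1.0) from 15 neighbours in 100 principal components of 2000 variable genes. The 7 genes and the pathway genes were left out, and no doublet caller was run. A cluster took the class with the most of its markers at 2 or more times the CPM of other cells in at least 10% of its cells, with at least 3 such markers. Classes were rebuilt here and can differ from the study's. A cluster was set apart when genes of another class stood above 0.1 of their own level, a threshold chosen after seeing the data. Neutrophil genes were read so in clusters named for neither neutrophils, macrophages nor dendritic cells, and macrophage genes in neutrophil and carcinoma clusters. The Vcan-led cluster, with neutrophil genes at 0.133, and the fibroblast-like cluster, with macrophage genes at 0.218, were therefore kept.

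UMIs were summed per library and class. CPM have exact Poisson intervals, shares exact Clopper-Pearson intervals and ratios exact intervals from the binomial split, all at 95% and for counting error only. The ratio and its interval were tested on simulated data with known folds. These were independent Poisson counts, as the interval assumes, so clumping of UMIs within cells was not covered. With 1 library per genotype no p-value was computed. The 7 genes, the lists, the markers and the rules were chosen with earlier results of these data known. Pathway genes are named only when past 2-fold with at least 20 UMIs in all, or when highest of their list, and not all of the latter are named. Promoter windows were read from RefSeq, with motifs chosen after the results. Alternatives changed the filter, the clustering, the total, the scaling, the doublet treatment, the depth and the count minimum. One gene among those most like Arg1 is not reported here.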

Additional observations from a re-analysis of the deposited data

Results flagged for a closer look

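Arg2 lay on opposite sides of a ratio of 1 in the 2 myeloid classes, at 1.24 (1.12 to 1.37) in neutrophil-like and 0.445 (0.190 to 0.889) in macrophage or monocyte-like cells of the Smad3-KO library against the Smad3-WT library. With 1 library of each genotype the difference between the classes was not tested. The second value rests on 8 Smad3-KO UMIs, and was 0.929 without macrophage or monocyte-like cells that held neutrophil markers.

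The 186 Smad3-KO cells that carried B cell genes together with neutrophil and macrophage genes, at 0.191 and 0.1505 of the level in those classes, entered no comparison. Markers raised 2-fold or more in their cluster also included Siglech (dendritic), Ly6c2 (macrophage or monocyte), Cd8a (T or NK) and Pecam1 (endothelial). The part of the macrophage genes in the Arg1 level of these cells was not tested. Acod1 was at 1760 CPM (1643 to 1883) in them and was found in 83.9% of cells, Arg2 at 233 CPM (191 to 280), Arg1 at 216 CPM (176 to 262), Nos2 at 50.3 CPM (32.2 to 74.8), Odc1 at 41.9 CPM (25.6 to 64.7) and Ass1 at 27.2 CPM (14.5 to 46.6). In B cell-like cells of the same library Acod1 was at 19.0 CPM and Arg1 at 2.53 CPM. Arg1 UMIs of the mixed cells came from 22 cells, and the tenth of cells richest in it held 97.1% of them. These cells held 34.2% (28.9 to 39.9%) of the Arg1 UMIs of the filtered Smad3-KO library, beside 32.9% (27.6 to 38.5%) in its macrophage or monocyte-like cells, and the intervals overlapped.

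In T or NK-like cells of the Smad3-KO library, 31 of the 40 Arg1 UMIs were in 1 of 414 cells.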

How the results depend on the processing

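Nos2 and Acod1 stayed higher and Odc1 lower past 2-fold in Smad3-KO neutrophil-like cells, and Nos2 higher and Arg1 lower in macrophage or monocyte-like cells, under every alternative that gave a value. The number of genes higher in neutrophil-like cells was 3 and ranged from 2 to 4 with Ass1 and Slc7a2. The lower call of Arg2 in macrophage or monocyte-like cells was lost under 7 of 13 alternatives. Arg1 joined Odc1 as lower in neutrophil-like cells, 2 genes in place of 1, without the upper limit on UMIs, with the MetaCell filter, with 30 principal components, with all variable genes in the clustering, and without cells that held markers of the other class. Its ratio ranged from 0.109 to 0.931. In macrophage or monocyte-like cells 2 genes were higher in place of 1 at resolution 0.1 (with Acod1) and with a mean over cells (with Slc7a2), and 1 was lower in place of 3 at 500 UMIs a cell, where Odc1 and Arg2 had few UMIs left. Arg1 alone had its highest Smad3-WT level in these cells, but 2 genes did at resolution 0.1 and with a mean over cells. At resolution 0.1 no cluster was named LLC carcinoma, and the macrophage or monocyte class held 1519 Smad3-WT cells in place of 1255. Values at that resolution thus come from another set of cells. In the Smad3-WT library, the share of macrophage or monocyte-like cells with both Arg1 and Nos2, 1.99%, was 0.0797% at 500 UMIs and 0.319% with at least 2 UMIs of each. Of 157 ratios under the alternatives, 132 lay within the interval of the main value, 25 lay outside and 0 of those called crossed 1. Resolution 0.1 gave no value for neutrophil-like cells, since its neutrophil cluster held macrophage genes above the threshold. Leaving out the Camp-led cluster was chosen after seeing the data. Low UMI numbers limit most the values of Slc7a2, of Ass1 in neutrophil-like cells, and of the 129 macrophage or monocyte-like cells of the Smad3-KO library. Ratios from a mean over cells have no interval. The cause of these shifts was not tested unless fewer UMIs are named. No paired analysis was possible because each genotype has 1 library and no test was made.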
